A study of Rattus norvegicus with 18 samples.

Results

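GABA-A receptors are chloride channels opened by the transmitter GABA, and each is assembled from several subunits drawn from a family of related genes. RNA of 7 of these genes (Gabra2, Gabra3, Gabra4, Gabra5, Gabrb1, Gabrb2 and Gabrd) was followed in primary rat neurons with and without CHD5 depletion. Probes were chosen by the gene symbol in the array annotation alone, and 6 of the 22523 probes carried the symbol of a listed gene, with 1 probe for each of 6 genes. No probe had the symbol Gabra2. A probe named LOC289606 carries the gene identifier that RefSeq gives to Gabra2, and it is described here as the Gabra2 probe but was not counted among the 6.

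The neurons came from the cortex of embryonic day 18 rats and were infected for 6 hours on day 1 with a pLKO.1 lentivirus carrying either CHD5 shRNA or a scrambled control shRNA. Both cultures were then kept in Neural Basal Medium, so every group carried a virus and none was uninfected. RNA was harvested on days 5, 9 and 12 and measured on Illumina RatRef-12 arrays, and each lentivirus had 3 replicates, a to c, per day, which makes 18 arrays. These arrays used 1 CHD5 lentivirus, so from them depletion of CHD5 and other effects of that shRNA cannot be told apart. No probe was annotated to Chd5, so its RNA could not be checked on them. The paper reports that CHD5 RNA and protein fell with its knockdown. By quantitative PCR on independent samples the paper lists Gabrd among genes for which CHD5 acted as a repressor. Targets that failed to replicate with another shRNA were treated there as possible off-target results. Nothing in the labels says that the replicates were separate cultures or animals, and the p-values measure only the spread between these samples.

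The alpha subunits form the GABA binding site together with the beta subunits and set much of the pharmacology of the receptor. Receptors with the alpha-5 or the delta subunit lie largely outside synapses and carry a tonic current, whereas alpha-2 is typical of synaptic receptors of young neurons. In the rodent cortex alpha-5 is abundant early and declines, while delta appears later with the alpha-4 subunit. GABA can depolarise young neurons, and the response turns inhibitory as the chloride exporter Slc12a5 (KCC2) accumulates.

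Each probe is 50 bases long, and a signal refers to the transcripts that contain its sequence. The following probe sequences identify what was measured for the genes on which the results turn. Probes that can be read in more than 1 open frame are given whole, and for the others the first 30 bases are given.
Gabra2 probe: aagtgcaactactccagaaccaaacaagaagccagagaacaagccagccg
Gabra5 probe: ccctgtgatgaccacttgacaggtgaaaaa
Gabrb1 probe: acagtggaccctgccgtccacctgcactgt
Gabrb2 probe: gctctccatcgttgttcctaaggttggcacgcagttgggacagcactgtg
Gabrd probe: gcccttgggagctgtgaagttttagactca
In the array annotation Gabra5 lies on chromosome 1, Gabrd on chromosome 5, Gabrb2 on chromosome 10, Gabra3 on chromosome X, and Gabra2, Gabra4 and Gabrb1 on chromosome 14. The Gabrd probe starts at base 1637 of its transcript and contains a stop codon in every forward frame, and the Gabra5 and Gabrb1 probes start at bases 2041 and 1847.

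A probe was taken as detected on an array when its detection p-value, which compares its signal with that of the negative control beads, was at most 0.02. The Gabra5 and Gabrb1 probes were detected on all 18 arrays and Gabrb2 on 17. Gabrd was detected on 7 arrays, Gabra4 on 5 and Gabra2 on 3. The Gabra3 probe was detected on 0 arrays, with signals of 65.2 to 90.2, and it was not tested. Probes detected on at least 1 array were kept, which left 5 of the 6 probes with a listed symbol and the Gabra2 probe. Gabrd passed this filter only through arrays of days 9 and 12.

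**Figure D1:**
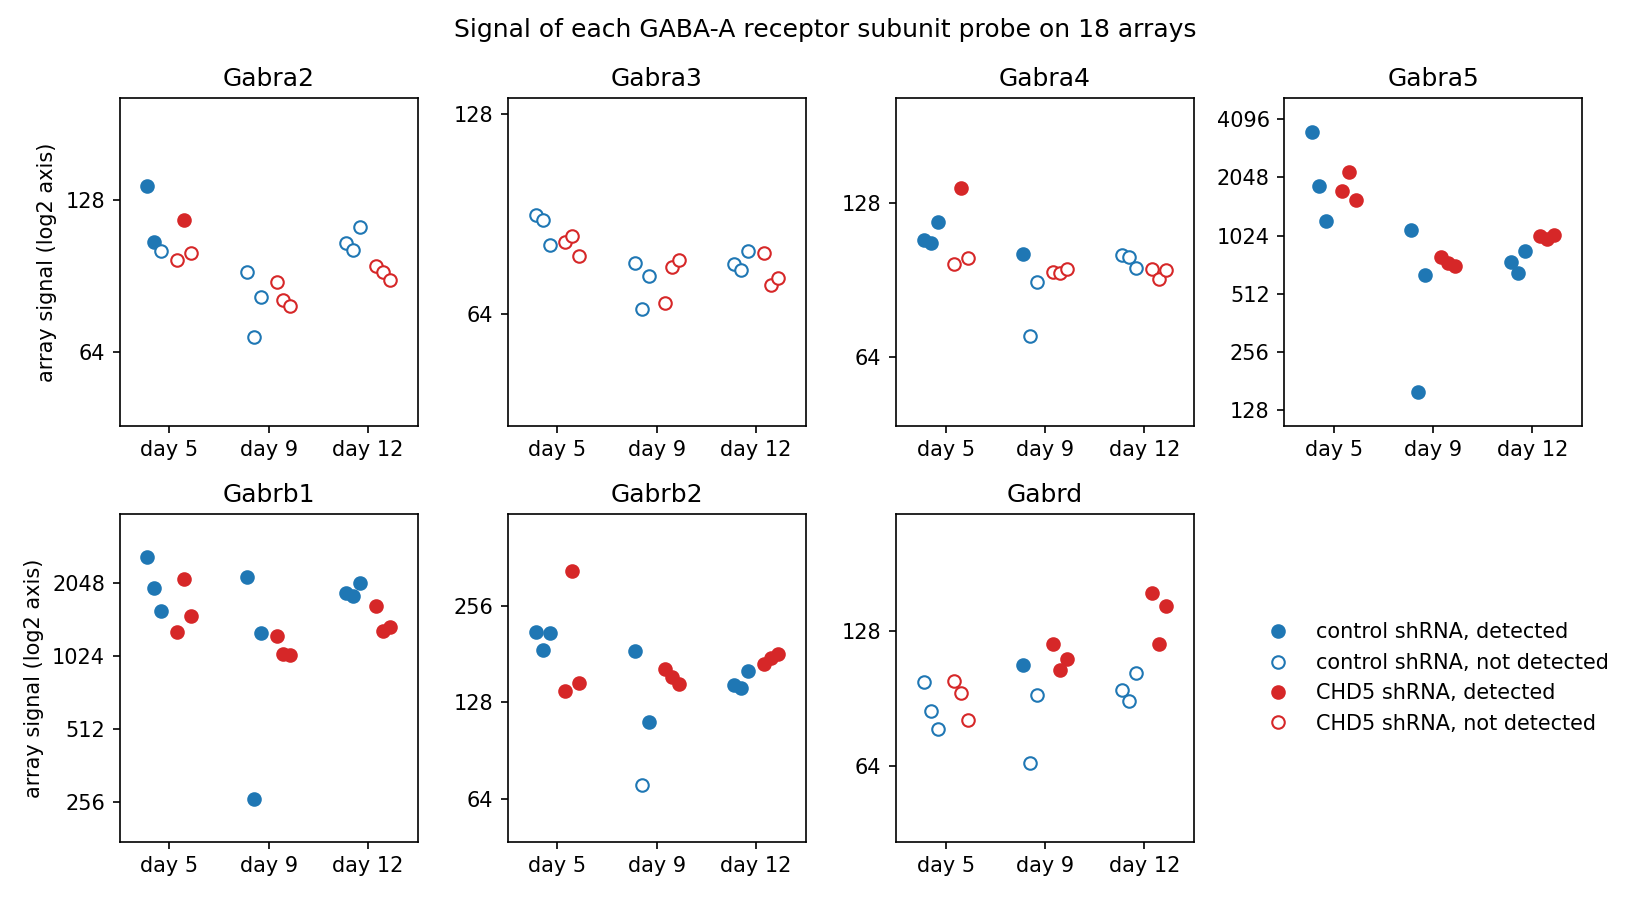
Deposited signal of each probe (log2 axis, with a separate range in each panel) on the arrays of days 5, 9 and 12, in blue for the control and in red for the CHD5 lentivirus. Filled points were detected and open points were not; the Gabra5 and Gabrb1 points are filled throughout, and the lowest Gabra5 point, 159.2, is the day 9 control array of replicate b.

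One library stood apart. Control array b of day 9 was weak, with a mean signal of 134.8 (other arrays, 400.2 to 789.3) and 7047 probes detected (8360 to 9931). Its log2 signals were narrowly spread (SD 1.108; other arrays, 1.722 to 2.016), and the conversion to Z-scores stretched them to the common SD. For comparisons with the day 9 control group, the value without that array is given where it was moved most. The 10 of 12 pan-neuronal marker genes with a kept probe included 9 detected on all arrays, and 7 of the 10 astrocyte markers were detected on all arrays, so the cultures also held glial RNA. In a culture of several cell types, fewer cells of a type and less RNA per cell cannot be told apart.

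Gabra5 encodes the alpha-5 subunit, and its level fell between day 5 and day 9. In control cultures its signals on replicates a, b and c were 3516.1, 1840.1, 1216.8 on day 5, then 1096.4, 159.2, 637.3 on day 9 and 750.3, 651.1, 854.5 on day 12. With the CHD5 lentivirus they were 1735.7, 2172.2, 1565.8 on day 5, then 794.6, 733.6, 709.3 on day 9 and 1013.5, 976.9, 1033.4 on day 12. All day 5 signals lay above all day 9 and day 12 signals, with either lentivirus.

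On the normalized log2 scale the Gabra5 mean in control cultures was 10.56 ± 0.40 (SD, n = 3) at day 5, 9.41 ± 0.44 at day 9 and 9.43 ± 0.10 at day 12. limma gave a fall by 1.14 (SE 0.18, adjusted p = 0.000283) from day 5 to day 9 and by 1.13 (SE 0.18, adjusted p = 0.000171) from day 5 to day 12, about 2.21- and 2.18-fold. The groups did not overlap in either comparison (25.7% and 44.3% of all probes), and the exact two-sided permutation p was 0.1, the smallest that 3 against 3 arrays allow. Of all 11079 probes tested, 22% passed in the first comparison and 23.6% in the second. Between day 9 and day 12 the Gabra5 level differed by 0.02 (95% interval -0.37 to 0.41, adjusted p = 0.959), and none of the 5 members passed in that comparison, where 4.16% of all probes did. Without the weak day 9 array the fall to day 9 was by 0.93 (adjusted p = 0.000217), and the difference from day 9 to day 12 was -0.22 (adjusted p = 0.499).

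With the CHD5 lentivirus Gabra5 went from 10.46 ± 0.04 at day 5 to 9.74 ± 0.04 at day 9 and 9.94 ± 0.12 at day 12. It fell by 0.72 (SE 0.18, adjusted p = 0.0212) to day 9, where 9.33% of all probes passed. The difference from day 5 to day 12 was -0.52 (SE 0.18, adjusted p = 0.0637) and missed the threshold, although the groups did not overlap (47.6% of all probes). The first of these calls was lost with median centring (adjusted p = 0.0848), without the detection filter (0.0929) and when any of 5 CHD5 shRNA arrays of days 5 and 9 (all but day 5 array a) was left out (0.0583 to 0.072), and the second difference passed in 9 of 28 alternatives, among them the fit without the weak day 9 array (adjusted p = 0.00648).

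Gabrd encodes the delta subunit, and it was detected in the older CHD5-depleted cultures on every array. In control cultures its signals were 98.8, 85.1, 77.2 on day 5, then 107.5, 64.8, 92.0 on day 9 and 94.6, 89.4, 103.1 on day 12, and only the first of the day 9 arrays passed detection. With the CHD5 lentivirus they were 99.0, 93.3, 81.1 on day 5, then 120.3, 104.8, 111.2 on day 9 and 156.3, 120.0, 145.9 on day 12. No array was detected at day 5, and all 3 were at day 9 and at day 12. At day 12 all CHD5 shRNA arrays lay above all control arrays.

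At day 12 Gabrd was higher after CHD5 shRNA, with a normalized log2 mean of 7.09 ± 0.17 (SD, n = 3) against 6.51 ± 0.04, a difference of 0.58 (SE 0.10, adjusted p = 0.00154). The control arrays give only an upper limit for the level, so the change is stated as at least 1.27-fold, the mean of the CHD5 shRNA arrays over the mean of the lowest signal of any detected probe on each control array. Gabrd was the 1 of 5 tested members that passed at day 12, where 5.47% of all probes did. At days 5 and 9 limma called 0 and 0 of the 5 members, where 0.171% and 5.89% of all probes passed. At an unadjusted limma p under 0.05 the counts were 0, 0 and 3 of the 5 members at days 5, 9 and 12. Of all 11079 probes, 627, 2239 and 1771 had such a p. For Gabrd the difference was 0.10 (SE 0.10, adjusted p = 0.999) at day 5 and 0.19 (SE 0.10, adjusted p = 0.279) at day 9, or 0.25 (adjusted p = 0.113) without the weak array. With the arrays only centred on their medians, and their spreads left as they were, the day 12 difference was 0.59 and missed the threshold (adjusted p = 0.0957). It passed in the other 28 alternatives.

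**Figure D2:**
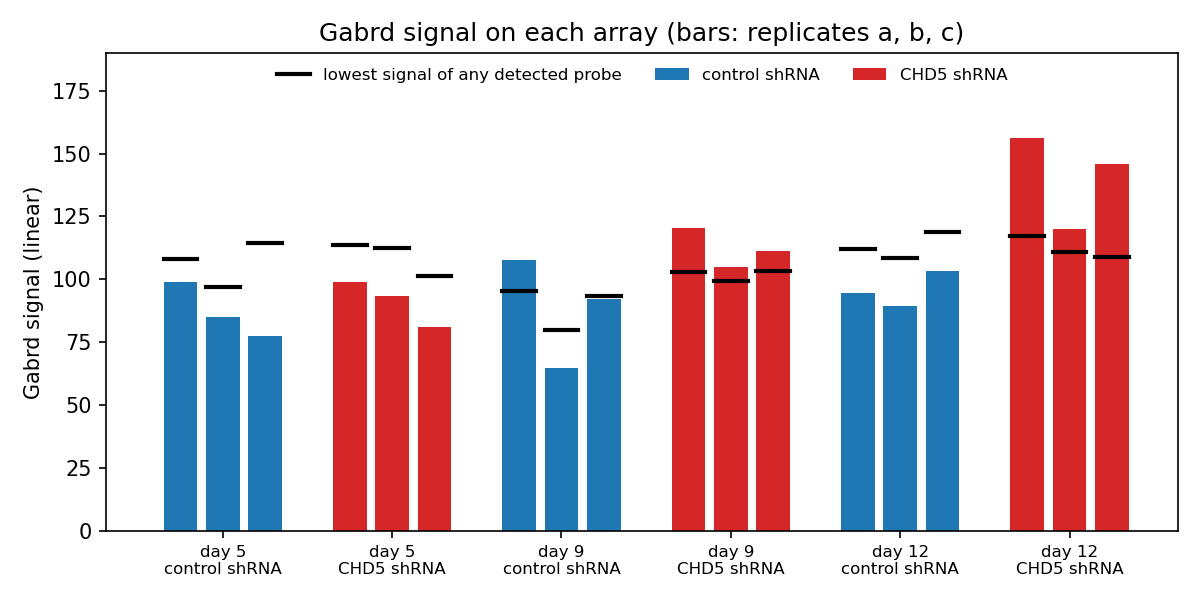
Gabrd signal on each array (linear axis, bars for replicates a, b and c of each group) with a black line at the lowest signal of any probe detected on that array. At day 12 the bars of the CHD5 shRNA arrays (120.0 to 156.3) stand above their lines and those of the control arrays (89.4 to 103.1) below them.

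Over time in the CHD5-depleted cultures Gabrd rose by 0.54 (SE 0.10, adjusted p = 0.00171) from day 5 to day 9 and by 0.70 (SE 0.10, adjusted p = 5.72e-05) from day 5 to day 12. As the day 5 arrays were below detection, these are rises of at least 1.23-fold and at least 1.37-fold. Both calls held in all 28 alternatives, and 17% of all probes passed from day 5 to day 12. Between day 9 and day 12 it differed by 0.15 (95% interval -0.05 to 0.36, adjusted p = 0.733), and none of the 5 members passed there, where 1.37% of all probes did. In control cultures the difference from day 5 to day 12 was 0.21 (SE 0.10, adjusted p = 0.133).

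The day 5 to day 9 comparison of Gabrd in control cultures passed the test (difference 0.45, SE 0.10, adjusted p = 0.00336), but 5 of its 6 arrays were below detection and no fold is given. Its deposited signals overlapped between these days, with means of 87.0 and 88.1. The call was lost under neqc background correction (adjusted p = 0.188), without the detection filter (0.0631) and with array weights (0.111). It remained without the weak array (0.41, adjusted p = 0.00502).

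**Figure D3:**
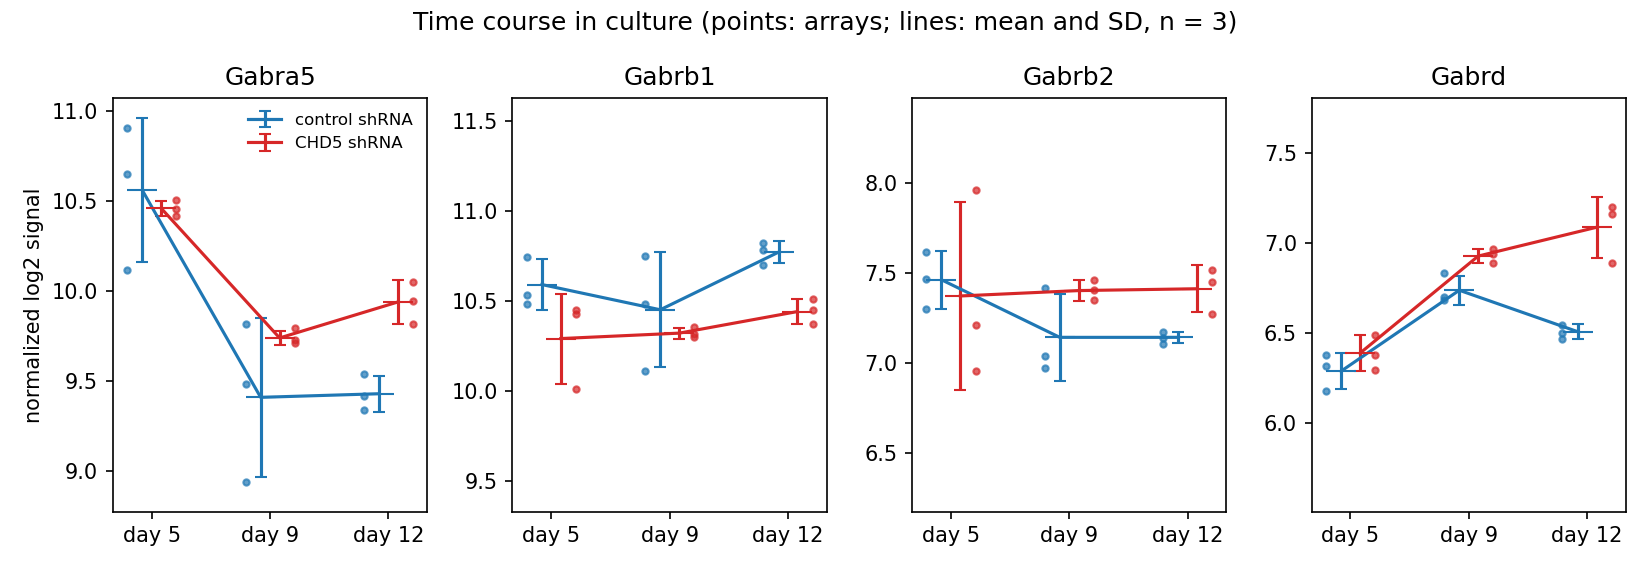
Normalized log2 signal of the Gabra5, Gabrb1, Gabrb2 and Gabrd probes at days 5, 9 and 12, with a point for each array and the mean ± SD of the 3 arrays of a group (blue, control; red, CHD5 shRNA). Panels have the same height of scale around different centres. Control Gabra5 drops from 10.56 to 9.41 between days 5 and 9, and Gabrd separates between the lentiviruses at day 12.

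Whether the CHD5 shRNA effect itself changed between days was tested as an interaction. None of the 5 tested members passed from day 5 to day 9, from day 9 to day 12 or from day 5 to day 12, and 0%, 0% and 0.153% of all probes did in limma. At an unadjusted p under 0.05, 809, 262 and 748 of all probes did, and 0, 1 and 2 of the 5 members. The change of the effect from day 5 to day 12 was 0.49 (SE 0.14, adjusted p = 0.205) for Gabrd and 0.61 (adjusted p = 0.626) for Gabra5. Without the weak day 9 control array, which takes no part in that contrast but adds to the pooled spread, the Gabrd value was 0.50 with an adjusted p of 0.0399.

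Gabra5 was also the member with the second largest difference between lentiviruses at day 12. Its level was 9.94 ± 0.12 after CHD5 shRNA and 9.43 ± 0.10 in the control, a difference of 0.51 (95% interval 0.12 to 0.90, adjusted p = 0.145) that did not pass. The signals, 976.9 to 1033.4 against 651.1 to 854.5, did not overlap. It passed in 5 of 29 alternatives, including quantile normalization (0.52, adjusted p = 0.021), the 6 arrays of day 12 alone (adjusted p = 2e-04) and the fit without the weak day 9 array (adjusted p = 0.0167). The difference was -0.10 (adjusted p = 0.999) at day 5 and 0.33 (adjusted p = 0.328) at day 9, and the day 9 value was 0.09 without the weak array.

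Gabrb1 encodes the beta-1 subunit. Its signals were high on all arrays except the weak day 9 control array b (262.8) and did not pass in any comparison. In control cultures they were 2631.0, 1964.4, 1569.3 on day 5, then 2182.7, 262.8, 1273.9 on day 9 and 1868.5, 1812.2, 2050.7 on day 12. With the CHD5 lentivirus they were 1288.8, 2123.0, 1505.1 on day 5, then 1236.6, 1040.9, 1037.9 on day 9 and 1648.9, 1305.9, 1354.8 on day 12. All 3 CHD5 shRNA arrays of day 12 were below all 3 control arrays. The normalized difference between the lentiviruses was -0.29 (95% interval -0.59 to 0.00, adjusted p = 0.884) at day 5, -0.12 (-0.42 to 0.17, adjusted p = 0.646) at day 9 and -0.33 (-0.62 to -0.03, adjusted p = 0.242) at day 12. Without the weak array the day 9 value was -0.30 (adjusted p = 0.118). The day 12 difference passed in 3 of 29 alternatives: array weights, the arrays of day 12 alone (adjusted p = 0.00277) and the fit without the weak day 9 array (adjusted p = 0.0477).

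Gabrb2 encodes the beta-2 subunit, common in adult synaptic receptors. Its signals in control cultures were 211.2, 186.0, 210.4 on day 5, then 184.3, 70.6, 111.2 on day 9 and 144.6, 142.2, 160.2 on day 12. After CHD5 shRNA they were 138.4, 328.6, 147.1 on day 5, then 162.1, 153.4, 145.5 on day 9 and 168.4, 175.6, 180.7 on day 12. The day 5 CHD5 shRNA arrays were the most spread (SD 0.52 on the normalized log2 scale). The difference between the lentiviruses at day 12 was 0.27 (95% interval -0.11 to 0.66, adjusted p = 0.552), with no overlap between the groups, and it passed in 2 of 29 alternatives.

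The remaining probes lay near background. Gabra4, the alpha-4 subunit that pairs with delta in many extrasynaptic receptors, was detected on all 3 control arrays of day 5 (106.9 to 117.6), on 1 CHD5 shRNA array of day 5 and on 1 control array of day 9, and on no array of day 12. Its differences between the lentiviruses were between -0.09 and 0.01, and none passed; the day 9 value was 0.04 without the weak array. From day 5 to day 12 in control cultures Gabra4 differed by -0.08 (95% interval -0.34 to 0.18, adjusted p = 0.702), and no fold is given. The Gabra2 probe was detected on 2 control arrays and 1 CHD5 shRNA array of day 5, with a highest signal of 136.6. At day 12 its control signals were 102.2 to 113.1 and those after CHD5 shRNA 88.9 to 94.6, all below detection. The normalized difference there was -0.18 (95% interval -0.41 to 0.05, adjusted p = 0.475 in limma), and the Gabra2 probe passed in no comparison.

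**Figure D4:**
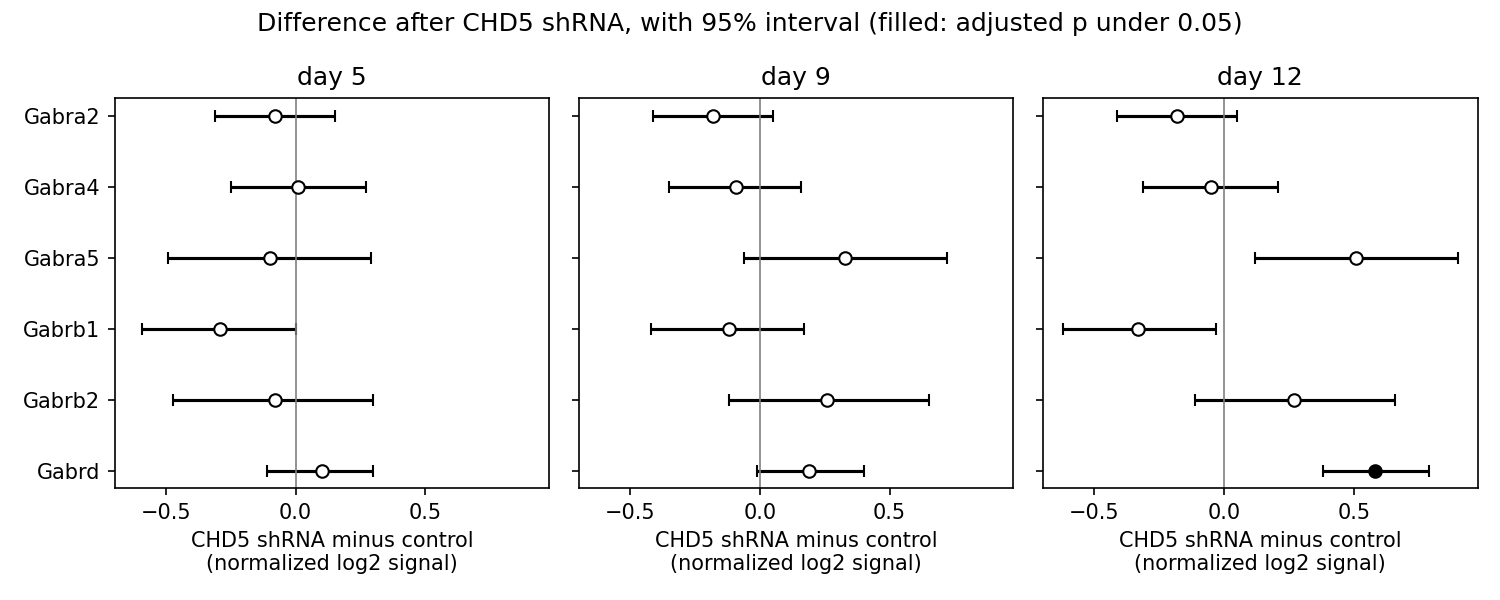
Difference between CHD5 shRNA and control arrays of each kept probe at days 5, 9 and 12 (normalized log2 signal, point with its 95% interval; filled where the adjusted p was under 0.05). The only filled point is Gabrd at day 12, at 0.58, and the day 12 intervals of Gabra5 (0.12 to 0.90) and Gabrb1 (-0.62 to -0.03) lie on opposite sides of 0.

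On the normalized scale the groups of CHD5 shRNA and control arrays did not overlap, among the 5 tested members, for 1 at day 5 (Gabrb1), 1 at day 9 (Gabrd) and 4 at day 12 (Gabra5, Gabrb1, Gabrb2 and Gabrd). The deposited signals of Gabrb1 at day 5 and of Gabrd at day 9 did overlap. The shares of all probes without overlap on the normalized scale were 11%, 20.6% and 38.2%. At day 12 the 3 others of these 4 had no adjusted p under 0.05, and the median difference of the 5 members was 0.27, beside a median of 0.01 over all probes. The members went both ways, with Gabra5, Gabrb2 and Gabrd higher and Gabrb1 and Gabra4 lower. The Gabra2 probe also did not overlap at day 12 but was lower (-0.18). With it included the median was 0.11, and 3 of the 6 kept probes were above 0.

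The repeat measurement of replicate a gave member signals 0.75 to 1.24 times the first ones. In it Gabra5 was 2713.0, 1309.6 and 682.4 in control cultures at days 5, 9 and 12. It was 2067.9, 861.1 and 1194.2 after CHD5 shRNA. For Gabra5 the order of days 5 and 12 and the higher day 12 level after CHD5 shRNA were thus also seen in that measurement of the same samples, which is not a further replicate. Gabrb1 at day 12 went the other way, with 1501.6 after CHD5 shRNA and 1434.7 in the control, where the first measurement had 1648.9 and 1868.5.

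The other subunits of the receptor family were represented by 12 probes. Of these 4 were kept, among them Gabrg1 and Gabrp, and Gabra6, an alpha subunit of cerebellar granule cells, was not detected on any array. At day 12 CHD5 shRNA left 0 of the 4 higher and 1 lower, with a median difference of 0.07, where 5.47% of all probes passed. Gabrg1, a gamma subunit, fell by 0.49 (SE 0.13, adjusted p = 0.0408) after CHD5 shRNA at day 12, with a median signal of 229.7 against 352.7. At day 9 it differed by -0.35 (adjusted p = 0.145). Without the weak array the day 9 difference was -0.49 (adjusted p = 0.0157), in a fit chosen after seeing the data. In control cultures it rose by 1.03 (SE 0.13, adjusted p = 1.57e-05) from day 5 to day 12, where 23.6% of all probes passed.

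Tested genes of GABA storage, uptake and breakdown rose in control cultures between days 5 and 12, and the 2 of synthesis did not pass in that comparison. By day 9, 6 of the 7 tested genes had risen from day 5 and 0 had fallen, where 22% of all probes passed. From day 5 to day 12 in control cultures 5 of the 7 tested genes rose and 0 fell, with a median of 0.48 beside -0.02 over all probes, of which 23.6% passed. The synthesising enzymes Gad1 and Gad2 differed by 0.32 (adjusted p = 0.141) and -0.30 (adjusted p = 0.214). Slc6a11, the glial transporter GAT-3, rose by 0.88 (SE 0.12, adjusted p = 3.47e-05). Slc32a1, which loads GABA into vesicles, rose by 0.48 (adjusted p = 0.00194), and Aldh5a1, an enzyme of GABA breakdown, by 0.57 (adjusted p = 0.00521). After CHD5 shRNA 0 of the 7 tested genes were higher and 2 lower at day 12, where 5.47% of all probes passed. Of these 2 genes, Abat, the GABA transaminase, fell by 0.49 (SE 0.12, adjusted p = 0.02). Abat was named after its values were seen. Gad1 and Gad2 differed between the lentiviruses by 0.09 (adjusted p = 0.936) and 0.21 (adjusted p = 0.658) at day 12.

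Of the GABA-B receptor and chloride transporter genes, 3 were tested. Slc12a5, the neuronal chloride exporter, rose from day 5 to day 12 by 0.76 (SE 0.17, adjusted p = 0.00287) in control cultures and by 1.13 (SE 0.17, adjusted p = 0.000124) with the CHD5 lentivirus. After CHD5 shRNA it was higher by 0.69 at day 9 (adjusted p = 0.0238), where 5.89% of all probes passed, and differed by 0.55 at day 12 (adjusted p = 0.0721). Without the weak array the day 9 difference was 0.41 (SE 0.11, adjusted p = 0.0178), in a fit chosen after seeing the data. The metabotropic receptor genes Gabbr1 and Gabbr2 did not pass in any comparison of the lentiviruses, with differences of -0.14 to 0.35. Gabbr1 rose by 0.56 (adjusted p = 0.0149) from day 5 to day 12 in control cultures.

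Among 16 tested genes of receptor anchoring and trafficking, 1 was higher and 0 lower after CHD5 shRNA at day 12, with a median difference of 0.01, where 5.47% of all probes passed. It was Nsf, an ATPase of vesicle fusion (0.57, SE 0.15, adjusted p = 0.0265), which was named after its values were seen. Gphn, the scaffold gephyrin, differed by 0.08 (adjusted p = 0.863). Over days 5 to 12 in control cultures 1 rose and 3 fell, where 23.6% of all probes passed. Hap1, which helps return receptors to the membrane, rose by 1.23 (SE 0.13, adjusted p = 1.24e-06), and Plcl1, a receptor-binding protein, fell by 0.84 (SE 0.18, adjusted p = 0.00204). Ubqln1, which stabilises receptors, fell by 0.36 (adjusted p = 0.0125). At day 5 none of the tested genes of these lists passed between the lentiviruses in limma.

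**Figure D5:**
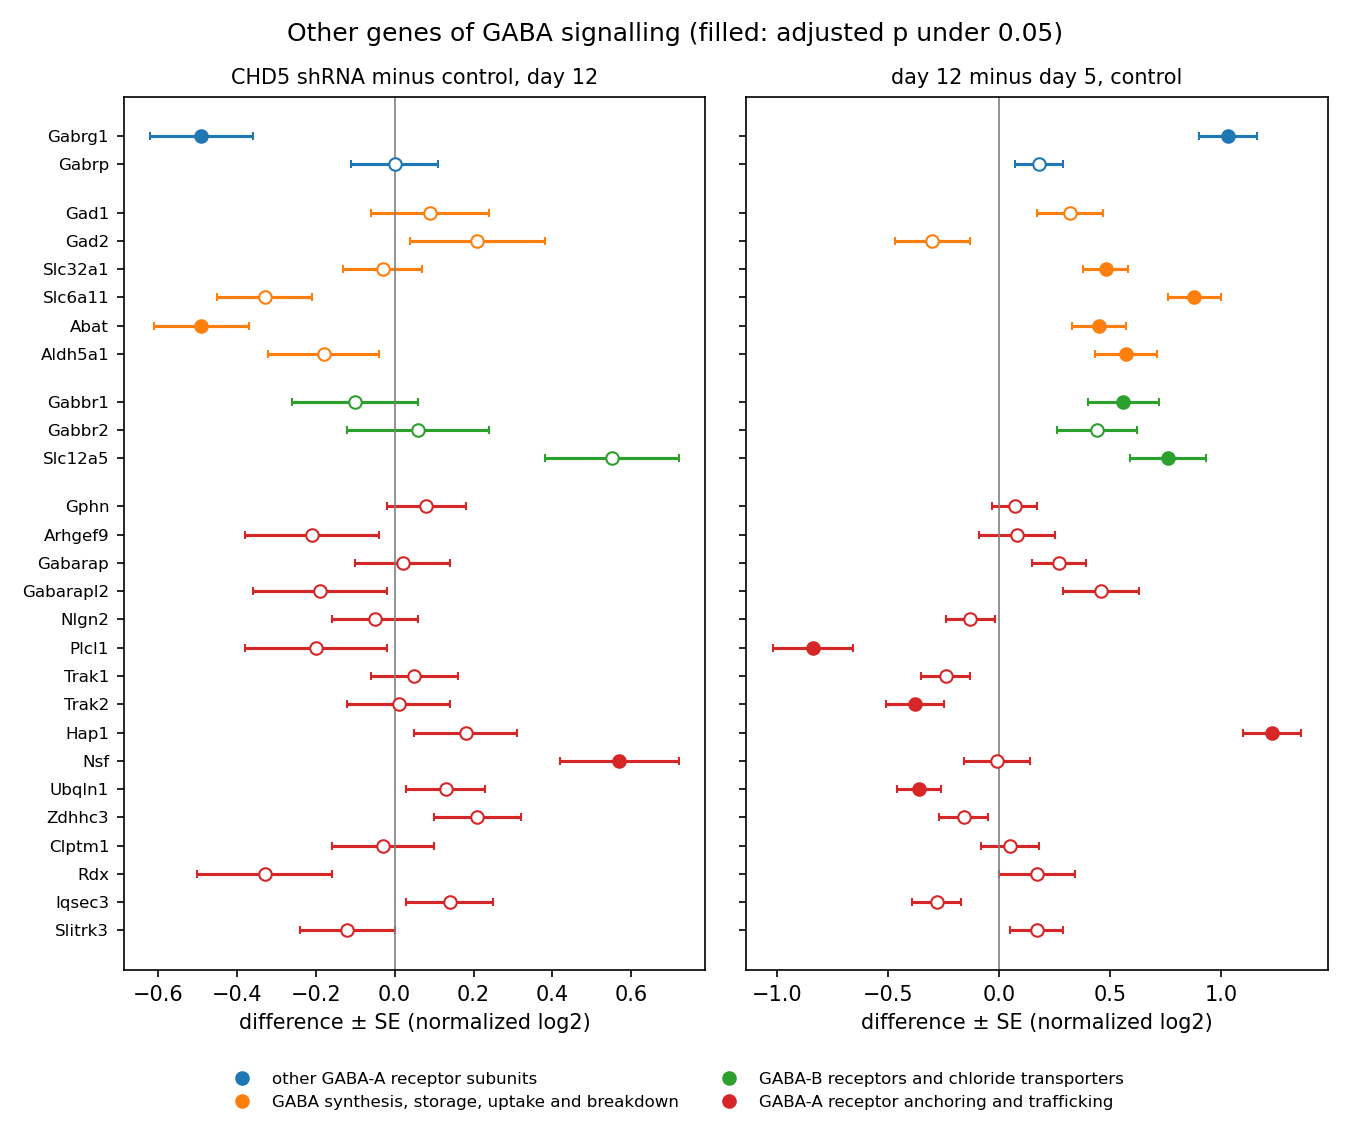
Differences ± SE (normalized log2 signal) of 27 kept genes of 4 lists of GABA signalling, between CHD5 shRNA and control at day 12 (left) and between days 12 and 5 in control cultures (right). Filled points had an adjusted p under 0.05; Gabrg1 lies at -0.49 on the left and at 1.03 on the right.

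Markers of glia and of neuron types were followed in the same comparisons, in which 5.47% (between the lentiviruses at day 12) and 23.6% (from day 5 to day 12 in control cultures) of all probes passed. After CHD5 shRNA at day 12, 5 of 10 astrocyte markers were lower and 0 higher, and their summed normalized level was 61231 to 68071 against 79388 to 93643 in the control. Among excitatory neuron markers 1 of 7 was higher and 0 lower (sums 5557 to 5846 against 4400 to 5019), and among interneuron markers 0 were higher and 2 of 13 lower (11586 to 11918 against 13666 to 13966). Of the oligodendrocyte lineage markers 0 were higher and 2 of 9 lower (12825 to 14076 against 15670 to 17725), and of the pan-neuronal markers 1 of 10 was higher and 0 lower (25412 to 26098 against 23858 to 25097). From day 5 to day 12 in control cultures 9 of 10 astrocyte markers rose and 0 fell (sums of 26352 to 38452 at day 5), while 2 of 7 excitatory markers rose and 4 fell (9799 to 10197 at day 5). Of the oligodendrocyte lineage markers 8 of 9 rose and 0 fell (7338 to 9151 at day 5), and of the pan-neuronal markers 1 of 10 rose and 2 fell (21103 to 23319 at day 5). With the CHD5 lentivirus 9 of 10 astrocyte markers rose too (27100 to 32429 at day 5). No probe of the 7 microglial markers was detected on all arrays, and 2 were kept. The part of these shifts in the Gabra5, Gabrd and Gabrg1 values was not tested.

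Of the members, only Gabra5 and Gabrb1 were detected on all arrays, and their profiles over the 18 arrays were set against 6436 other probes detected on all arrays. The probes most like Gabra5 were Armcx3 (Pearson r = 0.957), Sms (0.955) and Rnf19b (0.952), which gave 0.943 to 0.946 without the weak array. Those most like Gabrb1 were Pcyox1 (0.821), C3h11orf96 (0.821) and Ssx2ip (0.819), which gave 0.816, 0.779 and 0.782 without the weak array. The points share the culture days and the normalization, and the values are a description.

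The upstream sequences of the 2 members that passed a test are given next, since CHD5 is a chromatin remodelling protein and these are the regions where such genes start. RefSeq (GRCr8) gave promoters for 6 of the 7 genes, and the 250 bases before the start were searched on both strands for the GC box (GGGCGG), the E box (CANNTG), the cyclic AMP element (TGACGTCA, and its part TGACG) and TATAAA. GC boxes are in capitals.
Gabra5, chr1:117516607-117516856, minus strand: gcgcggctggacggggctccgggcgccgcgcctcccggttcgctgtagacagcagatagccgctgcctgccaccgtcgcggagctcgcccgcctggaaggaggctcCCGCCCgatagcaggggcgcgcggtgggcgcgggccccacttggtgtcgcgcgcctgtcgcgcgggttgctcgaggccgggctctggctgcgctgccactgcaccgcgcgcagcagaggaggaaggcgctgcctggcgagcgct
Gabrd, chr5:171252710-171252959, minus strand: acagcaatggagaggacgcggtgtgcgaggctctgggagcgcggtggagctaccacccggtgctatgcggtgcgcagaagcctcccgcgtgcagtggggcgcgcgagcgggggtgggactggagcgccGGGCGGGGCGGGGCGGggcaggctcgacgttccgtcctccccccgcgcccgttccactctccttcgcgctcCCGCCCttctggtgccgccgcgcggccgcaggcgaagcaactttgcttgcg
The Gabrd window held 4 GC boxes, of which 3 are neighbours that share a base, and Gabra5 and Gabra4 held 1 each, while 30.5% of 33469 promoters held at least 1. Their GC contents were 74.0%, 76.4% and 71.6%, against a median of 51.2% over all promoters, and Gabrb1, Gabrb2 and Gabra3 had 49.2%, 43.2% and 40.4%. An E box was found in Gabra5 and in none of the other 5, and 65.5% of all promoters held one. TATAAA was found only in Gabra3 (12.9% of all promoters). Neither the cyclic AMP element (1.6%) nor its part (18.2%) was found in these windows.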

How the data were processed

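RNA of 18 arrays (6 groups of 3) was measured on Illumina RatRef-12 arrays. The deposited signal intensities are means over the beads of a probe. The authors read them out with GenomeStudio 1.1.1, and per the file header neither normalized them nor subtracted background. Detection p-values, which compare a probe with negative control beads, were also deposited. Replicate a has a second measurement in all 6 groups, for a reason not given in the sources used here. The genome build of the probe coordinates was not given in the sources used here, and no probe coordinates are printed.

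A probe was kept when it was detected (p-value no higher than 0.02) on at least 1 array, as 11079 of 22523 were. Their log2 signals were converted to Z-scores per array, following the study's methods, and scaled back by the arrays' mean SD. limma 3.58.1 in R 4.3.3 was fitted to the 6 groups, with Benjamini-Hochberg adjustment over all kept probes and a threshold of 0.05. For a probe detected on all arrays of one group and none of the other, the dim arrays were set to the higher of their own value and the lowest signal of a detected probe, which gives a lower bound of the fold. The number of arrays limits the precision. Exact permutation tests were two-sided.

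The members, gene lists and tests were chosen with earlier results of these data known. All members are described. Of each list, at most 4 genes that passed between the lentiviruses or from day 5 to day 12 were named by smallest adjusted p, and exceptions are stated. The procedure was tested on simulated data with probes changed at day 12. It recovered 44% of the changes of 0.5 and 89% of the changes of 1 on the log2 scale. A difference of about 0.5 or less that did not pass is thus not shown to be absent. Same-letter arrays deviated together at day 5 (correlations 0.27, 0.17 and 0.38) but not on every pair at day 9 (0.43, 0.15 and -0.2) or day 12 (0.05, 0.15 and 0.01). These correlations were not set against those of arrays with different letters, so they do not show whether samples were paired by letter. The main fit used no pairing on any day, and blocks by letter were run only as alternatives. Slides were not analysed here, and some listed genes are counted but not reported singly here.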

Additional observations from a re-analysis of the deposited data

Results flagged for a closer look

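One value outside the main measurement was marked because a signal appeared there above the control. In the second measurement of replicate a at day 12, Gabrd had a signal of 136.3 after CHD5 shRNA and was detected, and 98.4 in the control, where it was not detected. The first measurement of these samples gave 156.3 and 94.6.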

How the results depend on the processing

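Up to 30 alternatives were run for each comparison. The number of members passing between the lentiviruses at day 12 was 1 and became 2 with quantile normalization, 0 with median centring, 2 with neqc, 4 with array weights and 4 with the arrays of that day only, and it lay between 1 and 3 on leaving out each array (3 without day 9 control array b). At day 9 it was 0 and became 1 with neqc (Gabrd). From day 5 to day 9 it was 2 in control cultures and became 1 with neqc, without a detection filter, with array weights and with a Z-ratio beyond 1.5, and in CHD5 shRNA cultures it was 2 and became 1 with median centring and without a detection filter (1 to 2 on leaving out each array). From day 5 to day 12 in CHD5 shRNA cultures it was 1 and became 2 with quantile normalization, neqc, detection on all 3 arrays of a group, array weights and the arrays of one shRNA only (1 to 2 on leaving out each array; 2 without control array a or c of day 5 or a or b of day 9). From day 9 to day 12 in control cultures, and for the change of the effect from day 5 to day 12, it was 0 and lay between 0 and 1 on leaving out each array (1 without day 9 control array a and b, respectively). The cause was not tested.

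The replicate block by letter within each day left these counts at 0, 0 and 1 at days 5, 9 and 12, and the block over all days changed no count of members. Of 72 member differences under these alternatives 0 changed sign after passing the test, and 132 of 2022 values changed sign without passing in either setting. Replacing the first by the second measurement of replicate a, chosen after seeing the data, changed no count. Signals near background limit what can be said of Gabra2, Gabra3, Gabra4 and Gabrd.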
